A study of Mus musculus with 15 samples.

Results

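Genes of the cell division cycle were followed in 15 lung nodules formed by the mouse mammary cancer lines D2.A1 and D2.OR. The 47 listed genes cover the cycle from the D-type cyclins of G1 to the factors that split the daughter cells, and they were listed by name. Of these, 45 had a transcript cluster of their own (the array's unit for 1 gene) among the 22180 genes of the table. Ccnb1 had no cluster that could be used, and Ccne2 shared its cluster with Ints8, so both were left out. Where a gene had several clusters, the cluster with the highest mean over the 15 arrays was used.

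Both lines belong to the D2.HAN series of BALB/c origin, in which D2.A1 cells form large lung metastases and D2.OR cells tend to stay dormant. Cells came from 3D culture on basement membrane extract (primed) or from 2D plastic (unprimed) and were injected into the tail vein of female BALB/c mice. The nodules were cut by laser from stained lung sections (formalin-fixed, embedded in paraffin), and each gave 1 Affymetrix Mouse Gene 2.0 ST array. By title, the groups were D2.A1 3D with 4 nodules (spindle, n = 2, and epithelial, n = 2), D2.A1 2D with 6 (spindle, n = 3, and epithelial, n = 3), D2.OR 3D with 3 and D2.OR 2D with 2, which are numbered 2 and 3. All D2.OR nodules are labelled spindle, so comparisons of the lines that use epithelial nodules mix line with morphology. With 3 mice in a group, the D2.A1 groups of 4 and of 6 hold nodules from the same animal, and the labels do not say which. Mice were 4 to 5 weeks old at injection and had an intact immune system.

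The cell cycle advances through bursts of transcription. In G1, D-type cyclins with the kinases Cdk4 and Cdk6 release E2F factors from Rb, and E2F turns on the genes that license and copy DNA. The DREAM complex, and B-Myb with FoxM1, act on the genes of G2 and mitosis, largely through a promoter element called the CHR and through CCAAT boxes. Resting cells keep most of these genes low, so their RNA is widely used as a sign of how many cells of a tissue are dividing. In a nodule, which mixes tumour and host cells, a lower level can come from fewer dividing cells or from less RNA per cell, and these cannot be told apart here.

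Promoters of members were read to show how these genes are built, from the RefSeq windows of build GRCm38.p6 that hold 250 bases before and 50 bases from the start of transcription. Windows were found for 39 of the 47 genes (42 windows, since some genes have several starts). The motifs searched on both strands were TTTCCCGC, TTTCGCGC, TTTGCCGC and TTTGGCGC for E2F, TTTGAA and TTCGAA for the CHR, and CCAAT. E2F sites and the CHR share their opening letters but no whole motif. An E2F motif was in 7 of the 19 windows of the G1, G1/S and S phase genes (36.8%) and in 1 of the 23 windows of the G2 and mitosis genes (4.35%), against 2.26% of all 32851 windows. A CHR motif was in 2 early windows (10.5%) and 17 late windows (73.9%), against 19.2% of all windows. CCAAT was in 11 early windows (57.9%) and 19 late windows (82.6%), against 37.4% of all windows. A match is a description of the letters and not evidence that a factor bound there.

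The stretches below run 5′ to 3′ on the gene's own strand, from 120 bases before to 30 bases after the start, with whole motifs in capitals. Mcm6 stands for the replication genes, Cdk1, Ccnb2 and Prc1 for genes of G2 and mitosis that are described among the primed D2.OR nodules, and Anln for the gene with the clearest difference between the lines.
Mcm6 (chr1:128359676-128359825, minus strand): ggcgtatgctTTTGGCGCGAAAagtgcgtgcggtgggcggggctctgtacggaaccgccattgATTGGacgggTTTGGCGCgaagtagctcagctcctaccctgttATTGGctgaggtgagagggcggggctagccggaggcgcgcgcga
Cdk1 (chr10:69352883-69353032, minus strand): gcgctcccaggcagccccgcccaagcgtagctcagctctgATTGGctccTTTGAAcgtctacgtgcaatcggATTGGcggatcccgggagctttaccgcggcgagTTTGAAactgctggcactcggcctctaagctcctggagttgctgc
Ccnb2 (chr9:70421525-70421674, minus strand): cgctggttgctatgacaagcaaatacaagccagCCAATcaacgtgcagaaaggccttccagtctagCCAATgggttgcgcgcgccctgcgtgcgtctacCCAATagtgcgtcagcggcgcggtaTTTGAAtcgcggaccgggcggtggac
Prc1 (chr7:80294331-80294480, plus strand): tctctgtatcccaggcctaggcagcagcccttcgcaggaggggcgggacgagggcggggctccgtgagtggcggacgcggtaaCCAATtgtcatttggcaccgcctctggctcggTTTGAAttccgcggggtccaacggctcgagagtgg
Anln (chr9:22389177-22389326, minus strand): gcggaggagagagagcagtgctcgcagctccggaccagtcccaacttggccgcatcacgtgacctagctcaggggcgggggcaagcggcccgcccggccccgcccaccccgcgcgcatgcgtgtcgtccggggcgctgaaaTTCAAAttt
Mcm6 carried E2F motifs (2 of them overlapping) and CCAAT boxes on the minus strand, written ATTGG. Cdk1 and Ccnb2 had CCAAT boxes upstream of a CHR near the start, and Prc1 had 1 of each. The Cdk1 window also held an E2F motif upstream of the printed stretch, and was the 1 late window with such a motif. In Anln a CHR motif lay just after the start on the minus strand and another, not wholly inside the printed stretch, on the plus strand, and no CCAAT box or E2F motif was in its window.

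The arrays were similar in scale, with medians between 1.81 and 1.91 on the log2 scale, and no pair held identical values. The median gene averaged 1.94. Most cycle genes lay above it (43 of 45) but were still weak, and differences between weak probes are compressed. One nodule stood apart. D2.OR 3D nodule 2 had a mean of 4.60 over 10 heart muscle genes, against at most 2.54 in any other nodule. Its Myl7, an atrial myosin light chain, read 7.14, against 2.38 and 3.07 in the other D2.OR 3D nodules. It also had the lowest weight when arrays were weighted by their fit (0.325, where the highest was 3.11). Where results rest on it, counts are given with and without it, and so are the differences of several named genes.

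**Figure D1:**
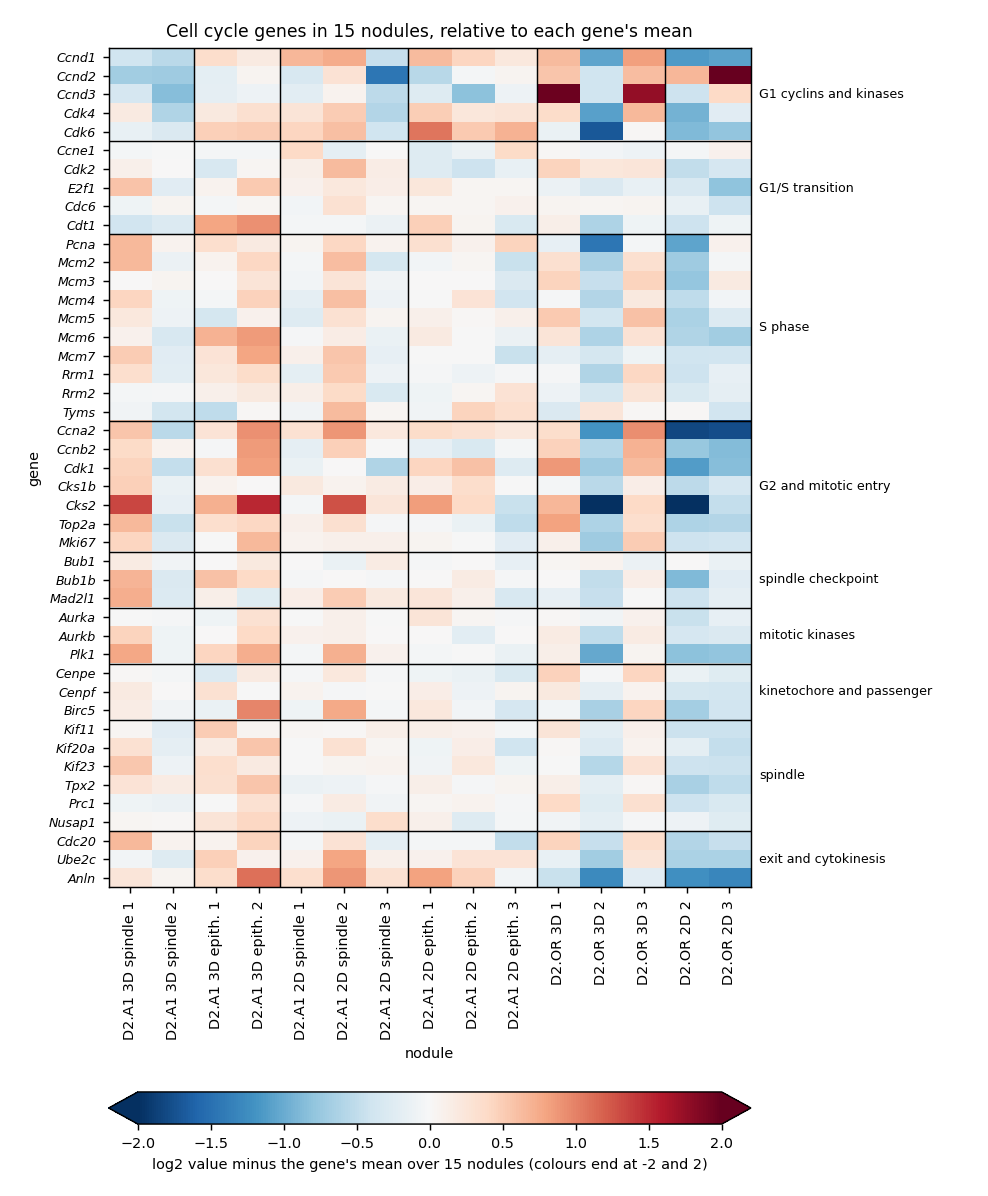
Each gene's log2 value minus its own mean over the 15 nodules, with genes in rows ordered by phase and nodules in columns ordered by group. The columns of D2.OR 3D nodule 2 and of both D2.OR 2D nodules are mostly blue (below the gene's mean). Those of D2.OR 3D nodules 1 and 3 resemble the D2.A1 nodules for most genes, but Ccnd3 is at its highest there. Ccnd2, Mcm3, Mcm5, Cenpe and Prc1 are also above all D2.A1 nodules in both, and Pcna and Anln are below them. Nodules 1 and 3 are above all D2.A1 nodules for 8 and 9 of the 45 genes, against 12.7% and 14.1% of all genes. Each is below them for 2 of the 45, against 10.1% and 10.8% of all genes.

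Most cycle genes were lower in both D2.OR 2D nodules and in D2.OR 3D nodule 2 than elsewhere. Averaged over the 45 genes, the log2 value was 2.78 to 3.36 in the 10 D2.A1 nodules, 3.17, 2.40 and 3.24 in the D2.OR 3D group (nodules 1, 2 and 3, an order kept throughout), and 2.37 and 2.61 in the D2.OR 2D group (nodules 2 and 3). D2.OR 3D nodules 1 and 3 therefore lay within the D2.A1 range, and D2.OR 3D nodule 2 with the D2.OR 2D nodules. Counted gene by gene, nodules 1 and 3 were within the range of the 10 D2.A1 nodules for 35 and 34 of the 45 genes, against 77.2% and 75.1% of all genes, so the cycle genes were in that range about as often as any gene. D2.OR 3D nodule 2 was below all 10 D2.A1 nodules for 31 of the 45, against 14.0% of all genes, and it read lowest among the 3 D2.OR 3D nodules for 42 of the 45, against 37.0% of all genes. The 3 exceptions were Ccne1, Tyms and Bub1.

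The step was largest among the genes of G2 and mitotic entry. Their mean over 7 genes was 3.36 to 4.37 in D2.A1 nodules, 4.09, 2.58 and 4.15 in D2.OR 3D and 2.44 and 2.89 in D2.OR 2D nodules. For exit and cytokinesis the means were 3.08 to 3.82 in D2.A1, 3.12, 2.36 and 3.29 in D2.OR 3D and 2.35 and 2.37 in D2.OR 2D. The S phase genes moved less, with means of 2.92 to 3.50 in D2.A1, 3.13, 2.53 and 3.30 in D2.OR 3D and 2.52 and 2.86 in D2.OR 2D. The G1 cyclins and kinases did not follow this order. Their mean was highest in D2.OR 3D nodules 1 and 3 (4.76 and 4.85), against 3.40 to 4.52 in D2.A1, and both D2.OR 2D nodules, at 3.54 and 4.17, lay inside the D2.A1 range.

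**Figure D2:**
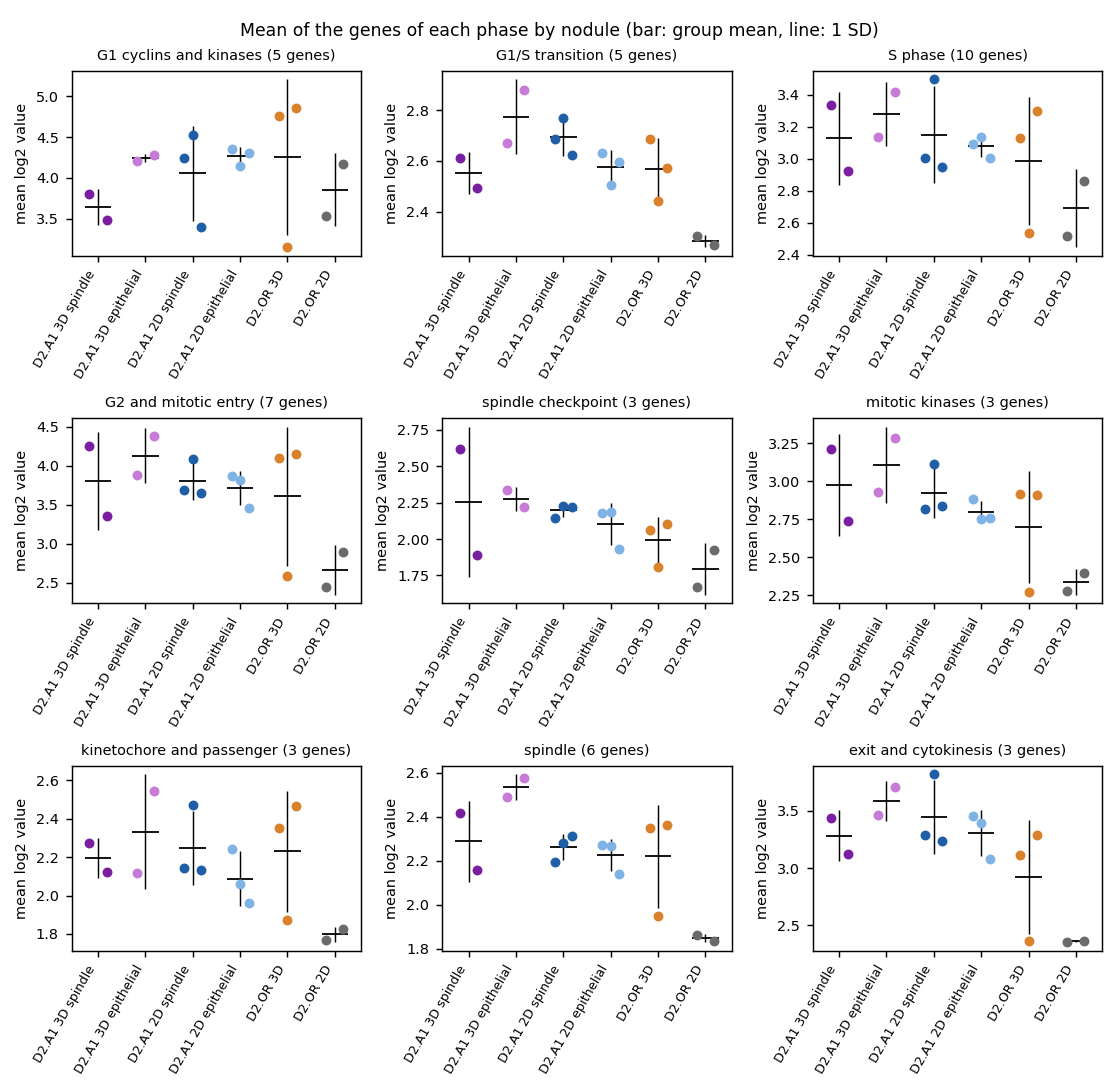
Mean log2 value of the measured genes of each of 9 phases (y axis) for every nodule (points), by group (x axis), with the group mean as a bar and 1 SD as a line. In 8 phases D2.OR 2D nodules are at or near the bottom, and in the panel of G2 and mitotic entry they sit at 2.44 and 2.89, below every D2.A1 nodule.

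The next question was which genes separate the metastatic line from the dormant one. Of the 45 genes, 6 were higher and 1 was lower in D2.A1 than in D2.OR over both cultures (limma, adjusted p under 0.05), against 1.52% of all genes called higher and 3.67% called lower. The higher genes were Anln, Tpx2, Ccna2, Plk1, Cdk6 and E2f1, and the lower one was Ccnd2. They came from the groups of G1, G1/S, G2 and mitotic entry, mitotic kinases, spindle, and exit and cytokinesis. None of the 10 S phase, 3 checkpoint or 3 kinetochore and passenger genes passed. The fitted difference was positive for 42 of the 45, with a median of 0.32 on the log2 scale, where the median of all genes was 0.02. Without D2.OR 3D nodule 2 it was positive for 40, with a median of 0.20. Because some nodules share a mouse, these p-values are too small by an unknown amount.

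Anln, the scaffold anillin that links actin, myosin and septins in the cleavage furrow, gave the clearest difference. Its log2 value was 3.17 to 4.32 (median 3.56) in D2.A1 nodules, 2.78, 1.95 and 2.99 in D2.OR 3D and 2.00 and 1.91 in D2.OR 2D nodules. Every D2.A1 nodule was above every D2.OR nodule, which held for no other member and for 116 of all 22180 genes (259 were below). The difference between lines was 1.40 ± 0.20 (SE; 2.64-fold, limma adjusted p = 0.00168). Without D2.OR 3D nodule 2 it was 1.25.

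Tpx2, which activates Aurora A and nucleates spindle microtubules, ranged from 2.57 to 3.24 (median 2.77) in D2.A1 nodules. It read 2.80, 2.49 and 2.70 in D2.OR 3D and 2.03 and 2.18 in D2.OR 2D nodules. Only the D2.OR 2D nodules and D2.OR 3D nodule 2 lay below the D2.A1 range. The difference was 0.46 ± 0.07 (limma adjusted p = 0.00337), and 0.41 without D2.OR 3D nodule 2.

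Ccna2, the cyclin A2 that drives S phase and entry into mitosis, had 3.54 to 5.00 (median 4.39) in D2.A1 nodules. In D2.OR 3D it was 4.44, 2.89 and 5.02, and in D2.OR 2D 2.26 and 2.32. The lines overlapped only through D2.OR 3D nodules 1 and 3. The difference of 1.22 ± 0.30 corresponds to 2.34-fold (limma adjusted p = 0.0372). It fell to 0.92 without D2.OR 3D nodule 2.

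Plk1, the mitotic kinase that matures centrosomes and helps to open mitosis, was at 3.36 to 4.27 (median 3.54) in D2.A1 nodules. Its values were 3.62, 2.47 and 3.56 in D2.OR 3D and 2.68 and 2.71 in D2.OR 2D nodules, so that D2.OR 3D nodule 2 was lowest of all and nodules 1 and 3 lay among the D2.A1 nodules. The difference was 0.82 ± 0.21 (limma adjusted p = 0.0405), and 0.64 without D2.OR 3D nodule 2.

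In G1, Cdk6, the partner kinase of D-type cyclins, ranged from 3.56 to 5.03 (median 4.45) in D2.A1 nodules. It was 3.83, 2.27 and 3.98 in D2.OR 3D and 3.08 and 3.16 in D2.OR 2D nodules. The Cdk6 difference was 1.03 ± 0.26 (2.04-fold, limma adjusted p = 0.0405), and 0.76 without D2.OR 3D nodule 2. E2f1, which switches on replication genes, was at 2.13 to 2.92 (median 2.47) in D2.A1 nodules, 2.24, 2.07 and 2.21 in D2.OR 3D and 2.04 and 1.55 in D2.OR 2D nodules. Its difference was 0.55 ± 0.13 (limma adjusted p = 0.0322), at values close to those of the median gene.

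Ccnd2, the cyclin D2 that is also abundant in lymphocytes, ran the other way. It was 2.05 to 3.79 (median 3.24) in D2.A1 nodules, 4.05, 3.10 and 4.11 in D2.OR 3D and 4.16 and 5.64 in D2.OR 2D nodules. The difference was -1.19 ± 0.31 (limma adjusted p = 0.0437). Lymphocyte markers were also higher in D2.OR nodules. Among these nodules the T cell mean followed the order of Ccnd2, and the B cell mean did not. The mean of 10 T cell genes was 1.91 to 2.22 in D2.A1, 2.80, 2.36 and 3.16 in D2.OR 3D and 3.38 and 4.79 in D2.OR 2D nodules. The mean of 10 B cell genes was 1.87 to 2.03 in D2.A1, 2.93, 3.34 and 2.55 in D2.OR 3D and 3.23 and 4.40 in D2.OR 2D nodules. In this comparison 9 of the 10 T cell genes and 9 of the 10 B cell genes were lower in D2.A1. The highest value of Ccnd2 and of both lists was in D2.OR 2D nodule 3. The part of these cells in the Ccnd2 values was not tested.

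Only 2 of the 7 calls were insensitive to single arrays. When each of the 15 arrays was left out in turn, Anln and Tpx2 passed in 15 of 15 refits, E2f1 and Plk1 in 5, and Ccna2, Cdk6 and Ccnd2 in 4. The share of all genes passing is given only for the refit without D2.OR 3D nodule 2. Counts of the other refits therefore do not show whether cycle genes lost calls more often than other genes. The number of calls in these refits ranged from 2 to 9. It was 2 without D2.A1 2D epithelial nodule 1, 2 or 3 or D2.A1 3D epithelial nodule 2. It was 3 without D2.A1 2D spindle nodule 1 or 2, D2.A1 3D spindle nodule 1, D2.A1 3D epithelial nodule 1 or D2.OR 2D nodule 3, and 4 without D2.OR 2D nodule 2 or D2.OR 3D nodule 1. When D2.OR 3D nodule 2 was dropped, 7 genes were higher and 2 were lower, against 1.71% and 6.17% of all genes. The 2 added calls were Mcm6, higher by 0.36 ± 0.09 (limma adjusted p = 0.0380), and Ccnd3, lower at -1.26 ± 0.18 (limma adjusted p = 0.00143).

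**Figure D3:**
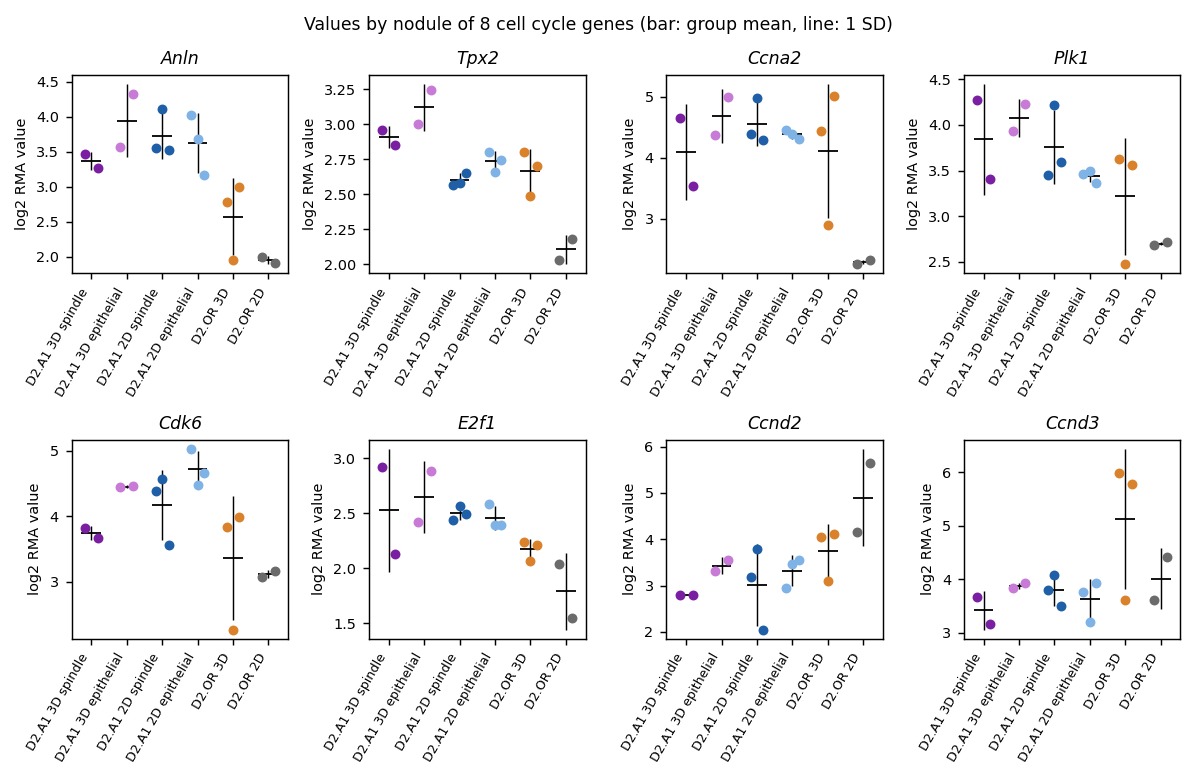
Log2 RMA value (y axis) in every nodule (points) by group (x axis) for the 7 genes that differed between the lines and for Ccnd3, with the group mean as a bar and 1 SD as a line. For Anln the lowest D2.A1 nodule, at 3.17, is above the highest D2.OR nodule, at 2.99, and for Ccna2 the D2.OR 2D nodules, at 2.26 and 2.32, lie below all other nodules.

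Wider lists of the same processes were counted in the same comparison. Of 64 other mitosis genes, 3 were higher in D2.A1 and none was lower at the adjusted threshold, and 24 were higher and none lower at an unadjusted p under 0.05 (limma), against 6.79% of all genes called higher without adjustment. They were Sgo2a, a shugoshin that protects centromeric cohesion, by 0.64 ± 0.13 (limma adjusted p = 0.0160), Iqgap3 by 0.36 ± 0.09 and Cdc25c, a phosphatase that activates Cdk1, by 0.33 ± 0.08. Of 59 other replication genes, 3 were higher and none was lower at the adjusted threshold, and 12 were higher and none lower without adjustment. These were Tk1, thymidine kinase 1 of the thymidine salvage route, by 0.80 ± 0.16 (limma adjusted p = 0.0139), Dut, which removes dUTP, by 0.48 ± 0.10, and the chromatin ATPase Atad2 by 0.61 ± 0.16. Tk1 was at 3.39 to 4.35 in D2.A1 nodules, 3.51, 2.93 and 3.59 in D2.OR 3D and 2.67 and 2.92 in D2.OR 2D nodules. The difference was positive for 58 of the 64 other mitosis genes, with a median of 0.17, and for 43 of the 59 other replication genes, with a median of 0.10.

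Between unprimed nodules alone, D2.A1 2D against D2.OR 2D, 3 genes were higher and 1 was lower, against 0.996% and 3.20% of all genes. These p-values share the limit of nodules from one mouse. Ccna2 differed by 2.18 ± 0.44 (4.52-fold, limma adjusted p = 0.0159), with a mean of 4.47 ± 0.25 in D2.A1 2D (SD, n = 6) and of 2.29 ± 0.04 in D2.OR 2D (n = 2). Anln differed by 1.72 ± 0.29 (3.30-fold, limma adjusted p = 0.00580) and Tpx2 by 0.56 ± 0.11 (limma adjusted p = 0.0105). Ccnd2 was lower at -1.74 ± 0.45 (limma adjusted p = 0.0499), and it passed in 3 of 15 refits with 1 array left out. Anln passed in 15 of them, Tpx2 in 14 and Ccna2 in 13, and how many of all genes kept their calls is not given. Ccna2 lost its call when either D2.OR 2D nodule was left out, and Tpx2 when D2.OR 2D nodule 2 was. Leaving out D2.OR 3D nodule 2, which takes part here only through the shared estimate of the spread, made 10 genes pass as higher and 1 as lower, against 1.81% and 4.12% of all genes. The 7 added were Ccnd1, Cdk6, Cks1b, Kif11, Mcm6, Plk1 and Ube2c. Without D2.OR 2D nodule 3 only Anln and Tpx2 passed.

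Looking at order rather than at the model, all 10 D2.A1 nodules were below both D2.OR 2D nodules for Ccnd2 alone. Of all 22180 genes, 1308 lay below in this way. The D2.A1 nodules were above both for 23 of the 45 genes, against 5.17% of all genes. By phase these were all 7 measured genes of G2 and mitotic entry, all 3 mitotic kinases, 4 of 6 spindle genes, 2 of 3 kinetochore and passenger genes (Cenpf and Birc5) and 2 of 3 exit genes (Ube2c and Anln). Of the 5 G1 genes Ccnd1 and Cdk6 were among them, of the 5 G1/S genes E2f1 and Cdc6, of the 10 S phase genes Mcm6, and of the 3 checkpoint genes none. Troap, a spindle protein of the other mitosis list, was higher by 0.88 ± 0.21 (limma adjusted p = 0.0335) and Tk1 by 0.99 ± 0.24 (limma adjusted p = 0.0367).

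Priming of the dormant line was asked next. In D2.OR 3D against D2.OR 2D no gene of the 45 passed the adjusted threshold, against 0.275% of all genes. At an unadjusted p under 0.05, 15 were higher and 1 was lower (limma), against 4.15% and 5.24% of all genes. The difference was positive for 42 genes, with a median of 0.38 (all genes 0.01), and without D2.OR 3D nodule 2 for 43, with a median of 0.63. The G2 and mitotic entry genes had the largest median, 1.00. All 3 D2.OR 3D nodules were above both D2.OR 2D nodules for 14 genes, against 10.7% of all genes.

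Nodule 2 decided this comparison. Without it, 9 of the 45 genes rose in D2.OR 3D and none fell, against 1.73% of all genes called higher. The 9 were Ccnd1 and Ccnd3 of G1, Mcm5 and Mcm6 of the replicative helicase, Ccna2, Ccnb2 and Cdk1 of G2, and the spindle genes Tpx2 and Prc1. D2.OR 3D nodules 1 and 3 were both above both D2.OR 2D nodules for 40 of the 45 genes, against 20.4% of all genes. The exceptions were Ccnd2, Ccne1, Pcna, Tyms and Bub1. In the same comparison without nodule 2, 8 of 9 fibroblast genes, 6 of 10 alveolar type II genes and 5 of 11 tumour epithelium genes also rose, and their part in the result was not tested. These 2 nodules were kept after the values had been seen, so the counts without nodule 2 describe them and do not replace the result on 3 nodules.

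Cdk1, the kinase that starts mitosis, was 3.77, 2.20 and 3.54 in D2.OR 3D and 1.79 and 2.06 in D2.OR 2D. It differed by 1.25 ± 0.43 with all nodules (limma adjusted p = 0.355) and by 1.73 ± 0.34 without nodule 2 (limma adjusted p = 0.0195). Ccnb2, the B-type cyclin that partners Cdk1, was 3.45, 2.42 and 3.68 in D2.OR 3D and 2.23 and 2.12 in D2.OR 2D nodules. Its difference was 1.00 ± 0.34 (limma adjusted p = 0.346) and without nodule 2 1.39 ± 0.27 (limma adjusted p = 0.0186). In both genes nodule 2 was nearer to the unprimed nodules, although still above them.

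Ccna2 showed the widest gap of the genes that passed, 2.44 ± 0.34 without nodule 2 (limma adjusted p = 0.00299) and 1.83 ± 0.50 with it (limma adjusted p = 0.211). Prc1, which bundles microtubules in the midzone of the dividing cell, was 2.75, 2.11 and 2.66 in D2.OR 3D and 1.94 and 2.04 in D2.OR 2D nodules. Mcm5 was 3.04, 2.14 and 3.10 in D2.OR 3D and 1.88 and 2.24 in D2.OR 2D nodules. Mcm6 was 4.14, 3.26 and 4.16 in D2.OR 3D and 3.28 and 3.19 in D2.OR 2D nodules. For both helicase subunits nodule 2 lay between the unprimed values, while nodules 1 and 3 were above them.

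The D-type cyclins, which pass growth signals to the cycle, each had a pattern of their own. Ccnd1 was 5.20, 3.51 and 5.39 in the D2.OR 3D group and 3.44 and 3.50 in the D2.OR 2D group, where D2.A1 nodules had 4.04 to 5.31. Ccnd3 was 5.98, 3.61 and 5.78 in the D2.OR 3D group and 3.61 and 4.41 in the D2.OR 2D group, where D2.A1 nodules had 3.17 to 4.08. D2.OR 3D nodules 1 and 3 thus had more Ccnd3 than any other nodule. Without nodule 2 Ccnd1 rose by 1.83 ± 0.31 (limma adjusted p = 0.00946) and Ccnd3 by 1.87 ± 0.30 (limma adjusted p = 0.00647). Ccnd2 was lower in every D2.OR 3D nodule than in both D2.OR 2D nodules, as were 1942 of all 22180 genes. The Ccnd2 difference was -1.15 ± 0.50 (limma adjusted p = 0.493).

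**Figure D4:**
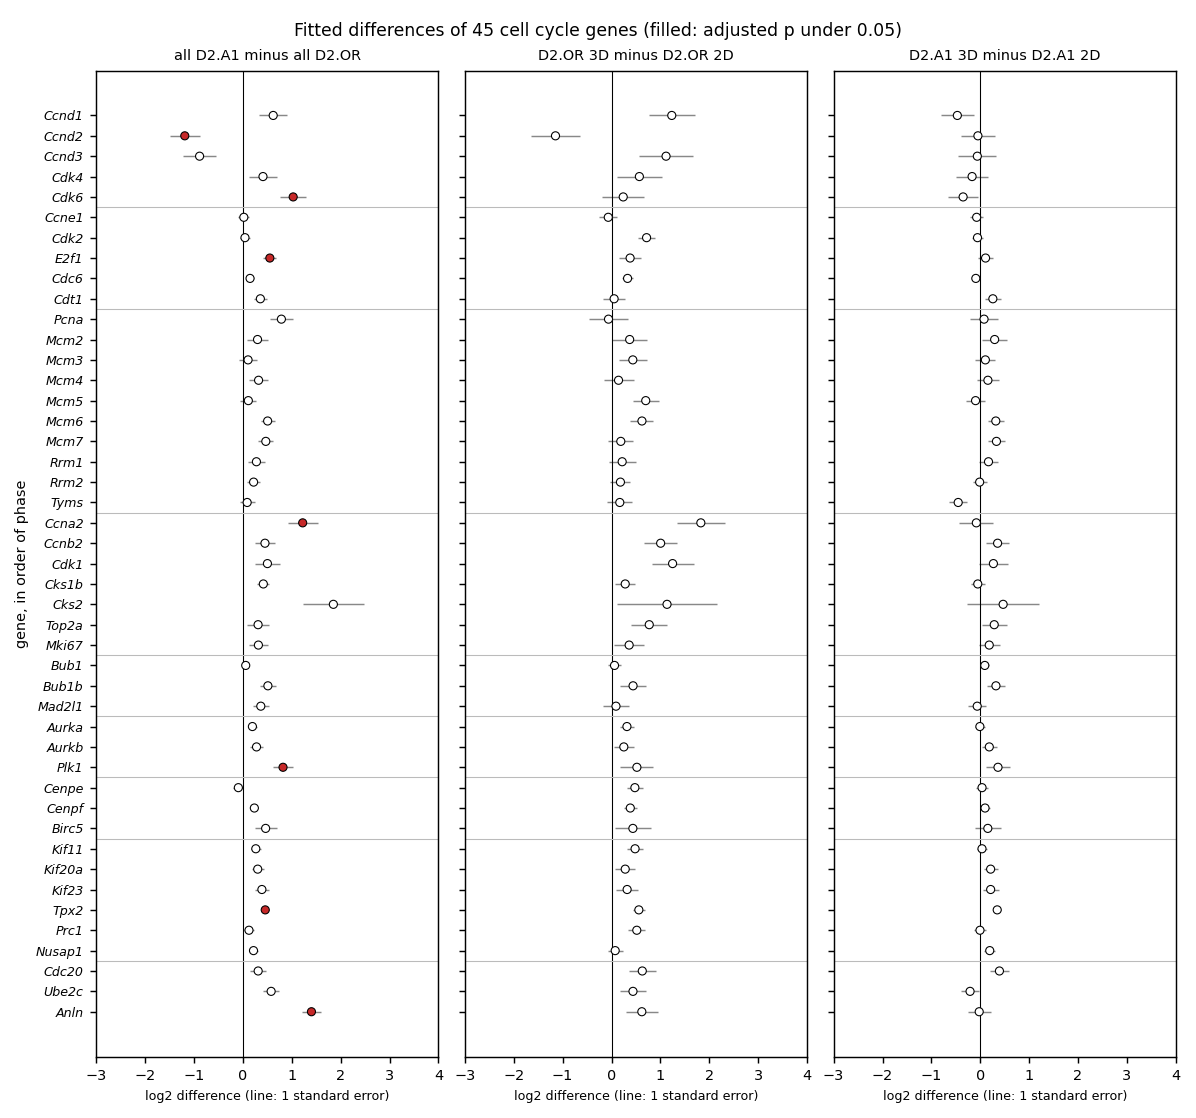
Fitted log2 difference (x axis, points, with 1 standard error as a line) of the 45 genes in order of phase (y axis), for all D2.A1 minus all D2.OR, D2.OR 3D minus D2.OR 2D and D2.A1 3D minus D2.A1 2D. Filled points passed an adjusted p of 0.05, which 7 genes did in the left panel and none in the others. The middle panel leans to the right (42 of 45 positive, median 0.38) and the right panel stays near 0 (27 of 45 positive, median 0.10).

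Markers of the tumour cells and of other cells were read beside these genes. Keratin 8 (Krt8) is in the tumour epithelium list but is not specific to tumour cells. It was 4.15 to 6.02 in D2.A1, 5.85, 3.64 and 5.57 in D2.OR 3D and 3.66 and 3.57 in D2.OR 2D nodules. Vim, expressed by these tumour cells and by stroma, was 9.58 to 10.10 in D2.A1, 9.35, 7.56 and 9.19 in D2.OR 3D and 7.94 and 8.08 in D2.OR 2D nodules. The nodules lowest in cycle genes were also the lowest in Krt8 and Vim. Epcam stayed at 1.55 to 2.10 in every nodule. Over the whole list of 11 tumour epithelium genes the mean was 2.95 to 3.71 in D2.A1 nodules. It was 3.68, 2.95 and 3.66 in D2.OR 3D and 2.88 and 2.81 in D2.OR 2D nodules. D2.OR 3D nodule 2 was thus level with the lowest D2.A1 nodule, D2.A1 2D spindle nodule 3. Between the lines the median difference of the list was 0.02, with 7 of the 11 positive. The part of tumour cell content in the cycle gene levels was not tested.

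Genes of host tissue also differed between nodules, each list in its own way. The mean of 10 fat cell genes was 1.73 to 1.94 in D2.A1, 3.79, 3.97 and 2.49 in D2.OR 3D and 6.60 and 3.64 in D2.OR 2D nodules. Alveolar type II genes averaged 2.57 to 4.01 in D2.A1, 4.99, 3.88 and 5.39 in D2.OR 3D and 2.61 and 2.71 in D2.OR 2D nodules. Fibroblast genes averaged 3.43 to 4.27 in D2.A1, 5.54, 3.96 and 6.18 in D2.OR 3D and 3.64 in both D2.OR 2D nodules. Over both cultures 6 of 10 fat cell genes were lower in D2.A1 than in D2.OR. In D2.OR 3D against D2.OR 2D, 2 of 10 alveolar type II genes and 1 of 9 fibroblast genes rose, and 1 of 10 genes each of the B cell and T cell lists fell. Macrophage genes averaged 2.76 to 3.26 in D2.A1, 3.70, 3.01 and 3.58 in D2.OR 3D and 2.79 and 3.35 in D2.OR 2D nodules, and endothelial genes 2.24 to 2.80, 2.75, 2.67 and 2.91, and 3.38 and 2.96 in these same groups. Germinal centre B cells divide, and their genes averaged near the median gene in all nodules (1.90 to 2.34, 5 genes of 7 measured). Erythroid genes did too (1.79 to 2.21, 4 genes of 9 measured). Between the lines, 1 of the 5 germinal centre genes was higher in D2.A1 and 1 was lower, against 1.52% and 3.67% of all genes. The part of any of these cells in the cycle gene levels was not tested.

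**Figure D5:**
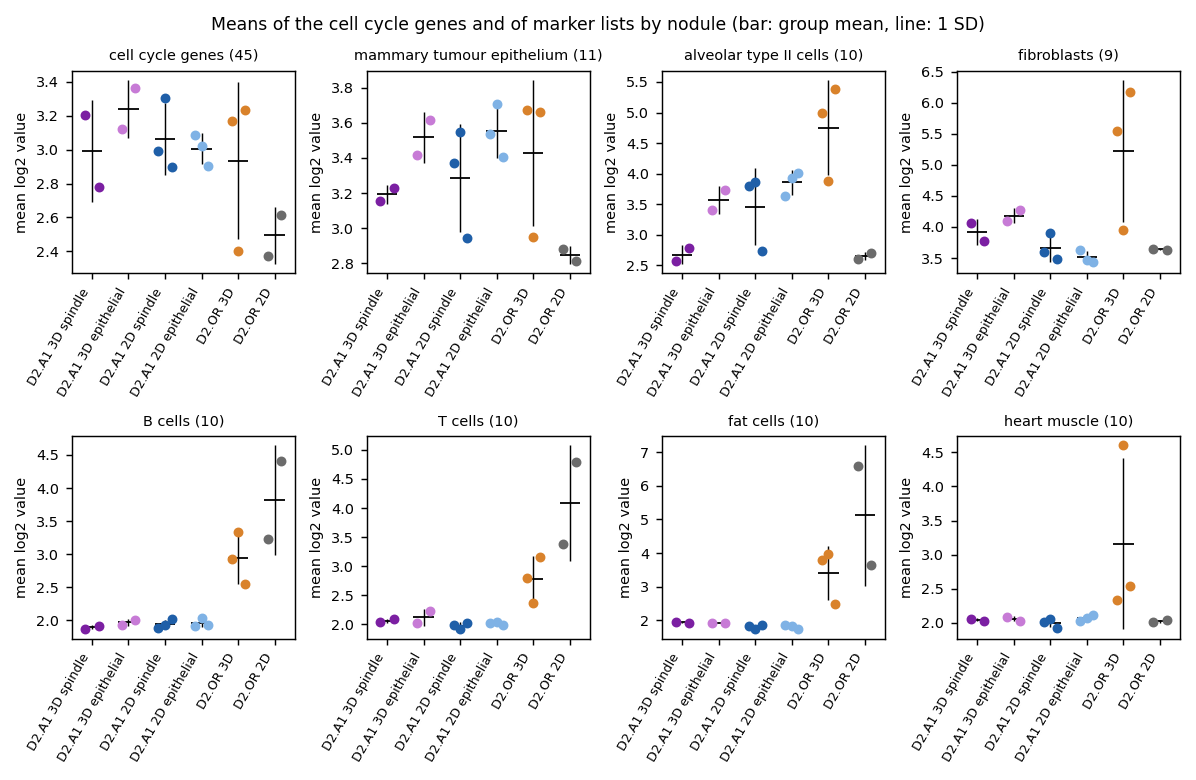
Mean log2 value (y axis) of the 45 cell cycle genes and of 7 marker lists in every nodule (points) by group (x axis), with the number of genes in each title, the group mean as a bar and 1 SD as a line. In the heart muscle panel D2.OR 3D nodule 2 stands alone at 4.60, and fat, B cell and T cell genes are higher in all 5 D2.OR nodules than in all D2.A1 nodules.

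Priming of the metastatic line gave no change in the cycle genes that passed the test. In D2.A1 3D against D2.A1 2D none of the 45 passed, against 0.00451% of all genes. At an unadjusted p under 0.05 there were 2 (limma), against 5.33% of all genes. These were Tpx2, at 0.35 ± 0.08 (limma adjusted p = 0.516), and Tyms, thymidylate synthase, at -0.45 ± 0.18 (limma adjusted p = 0.887). Tpx2 was 2.85 to 3.24 in the 4 D2.A1 3D nodules and 2.57 to 2.80 in the 6 D2.A1 2D nodules. How many of all genes separated these groups as fully was not counted. The median difference of the 45 genes was 0.10. The p-values of this comparison are also too small where nodules share a mouse.

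Between spindle and epithelial nodules of D2.A1 none of the 45 genes passed, nor did any of all genes (0%). At an unadjusted p under 0.05, 1 was higher and 2 were lower in spindle nodules (limma), against 7.81% of all genes in either direction. Cdk2, the kinase of cyclins E and A, differed by 0.38 ± 0.12 (limma adjusted p = 0.416). Cdt1, which loads the helicase at origins, differed by -0.66 ± 0.16 (limma adjusted p = 0.257) and Mcm6 by -0.45 ± 0.17 (limma adjusted p = 0.505). Cdt1 was highest in D2.A1 3D epithelial nodules 1 and 2, at 3.98 and 4.11, against 2.82 and 2.93 in the 3D spindle nodules. The median difference of the 45 genes was -0.04. Whether spindle and epithelial nodules came from the same mice is not given.

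Among primed nodules, D2.A1 3D against D2.OR 3D, no gene of the 45 passed, against 0.446% of all genes. At an unadjusted p under 0.05, 7 were higher and 3 lower (limma), against 10.2% of all genes. Anln had the smallest p, with a difference of 1.08 ± 0.28 (limma adjusted p = 0.147), and Ccnd3 was at -1.47 ± 0.46 (limma adjusted p = 0.244). Without D2.OR 3D nodule 2, Ccnd3 was lower in D2.A1 3D at -2.23 ± 0.26 (limma adjusted p = 0.00101), against 2.08% of all genes called lower, and the median of the 45 genes was -0.01 in place of 0.25. The balance of the unadjusted calls also turned, to 2 higher and 7 lower, against 12.7% of all genes in either direction. Among the 59 other replication genes Dut was higher by 0.77 ± 0.14 (limma adjusted p = 0.0366). Shared mice limit these p-values as well.

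The difference of the priming effects, D2.OR 3D minus 2D less D2.A1 3D minus 2D, tests whether priming acted differently on the lines. None of the 45 passed, against 0.0947% of all genes. At an unadjusted p under 0.05, 7 were higher and none lower (limma), against 8.18% of all genes. They were Ccna2, Ccnd1, Cdc6, Cdk2, Kif11, Mcm5 and Prc1. The median was 0.28, and 0.51 with D2.OR 3D nodule 2 left out. In that setting 4 genes passed, all with a larger effect in D2.OR, against 0.987% of all genes called higher. Ccna2 gave 2.52 ± 0.41 and Ccnd1 2.30 ± 0.37 (limma adjusted p = 0.0107 for each). Ccnd3 gave 1.93 ± 0.36 (limma adjusted p = 0.0219) and Prc1 0.72 ± 0.16 (limma adjusted p = 0.0499).

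The remaining genes are given by phase. In the G1/S group Cdt1, the gene with the highest mean there, was 2.82 to 4.11 (median 3.16) in D2.A1, 3.31, 2.58 and 3.11 in D2.OR 3D and 2.79 and 3.11 in D2.OR 2D nodules. Ccne1, the cyclin E1 that starts DNA replication, was level, at 2.43 to 3.08 in D2.A1, 2.57 to 2.70 in D2.OR 3D and 2.64 and 2.76 in D2.OR 2D. Cdk4 was 3.75 to 4.86 in D2.A1, 4.73, 3.27 and 5.01 in D2.OR 3D and 3.41 and 4.12 in D2.OR 2D. Cdc6, a loader of the helicase, stayed between 1.73 and 2.45 in all nodules.

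In S phase, Pcna, the sliding clamp of DNA polymerase, was 4.68 to 5.27 (median 4.86) in D2.A1, 4.45, 3.17 and 4.58 in D2.OR 3D and 3.57 and 4.70 in D2.OR 2D nodules. D2.OR 2D nodule 3 reached the D2.A1 range and all D2.OR 3D nodules were below it. Its difference between the lines was 0.79 ± 0.24 (limma adjusted p = 0.0895). Mcm2, Mcm3, Mcm4 and Mcm7, the other helicase subunits, differed between the lines by 0.11 to 0.47, and none passed. Rrm1 and Rrm2, the subunits of ribonucleotide reductase, differed by 0.28 ± 0.17 and 0.22 ± 0.13. Tyms, at 2.10 to 3.25 in D2.A1, 2.32, 2.85 and 2.65 in D2.OR 3D and 2.65 and 2.23 in D2.OR 2D, did not follow the other genes.

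Cks2, a small partner subunit of Cdk1, had the widest range of the list. It was 4.64 to 6.60 (median 5.65) in D2.A1, 5.75, 2.02 and 5.48 in D2.OR 3D and 1.95 and 4.62 in D2.OR 2D nodules. The difference between the lines, 1.85 ± 0.63, did not pass (limma adjusted p = 0.130), and D2.OR nodules of one culture lay far apart. Of its 4 clusters 3 hold identical values. Its relative Cks1b was 4.33 to 4.93 in D2.A1, 4.41, 3.92 and 4.59 in D2.OR 3D and 3.93 and 4.13 in D2.OR 2D. Mki67, whose protein Ki-67 is the common stain for dividing cells, was 2.78 to 3.72 in D2.A1, 3.17, 2.36 and 3.57 in D2.OR 3D and 2.66 and 2.69 in D2.OR 2D. Top2a, which untangles DNA, was 2.35 to 3.52 in D2.A1, 3.66, 2.25 and 3.19 in D2.OR 3D and 2.24 and 2.28 in D2.OR 2D. For both, D2.OR 3D nodules 1 and 3 were at D2.A1 levels or above, and the difference between the lines did not pass.

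Among the checkpoint genes, which hold mitosis until chromosomes are attached, Bub1b was 2.09 to 3.05 (median 2.39) in D2.A1, 2.39, 1.89 and 2.52 in D2.OR 3D and 1.51 and 2.15 in D2.OR 2D nodules. Mad2l1 differed between the lines by 0.37 ± 0.16 and Bub1 by 0.06 ± 0.08. Bub1 never exceeded 1.76, below the mean of the median gene. The Aurora kinases Aurka and Aurkb differed by 0.20 ± 0.08 and 0.28 ± 0.13. Birc5, survivin of the chromosomal passenger complex, was 1.98 to 3.31 (median 2.28) in D2.A1, 2.26, 1.67 and 2.75 in D2.OR 3D and 1.64 and 1.94 in D2.OR 2D. Cenpf, a kinetochore protein, was 2.00 to 2.40, 1.92 to 2.29, and 1.75 and 1.74 in these same groups. Cenpe, the kinetochore motor, was highest in D2.OR 3D nodules 1 and 3, at 2.50 and 2.47, against 2.25 for the highest D2.A1 nodule.

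The spindle motors Kif11, Kif20a and Kif23 differed between the lines by 0.26 ± 0.10, 0.30 ± 0.12 and 0.39 ± 0.14 and Nusap1 by 0.22 ± 0.09, none past the threshold. Cdc20, the activator of the anaphase-promoting complex, was 2.77 to 3.90 (median 3.27) in D2.A1, 3.70, 2.80 and 3.60 in D2.OR 3D and 2.68 and 2.80 in D2.OR 2D nodules. Ube2c, the ubiquitin-conjugating enzyme of that complex, was 2.77 to 3.82 in D2.A1, 2.87, 2.33 and 3.28 in D2.OR 3D and 2.39 in both D2.OR 2D nodules. Its difference between the lines was 0.58 ± 0.16 (limma adjusted p = 0.0589).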

How the data were processed

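Values were the deposited log2 expression values, which the authors made from the arrays by robust multi-array averaging (RMA) and which the submitters' processing notes place in Affymetrix Expression Console and Transcriptome Analysis Console; their versions were not given in the sources used here. Because RMA brings every array to one distribution, a shift common to most genes cannot be seen, and contrasts at low signal come out too small. In all there were 41345 transcript clusters. Of these, 23521 named 1 gene, 1820 several and 16004 none, by the platform's probe-to-gene annotation, and the first kind gave 22180 genes. A group mean per title group was fitted in limma 3.58.1 (R 4.3.3) over all 15 arrays, with 9 residual and 3.20 prior degrees of freedom. Comparisons were contrasts of these means, with groups of one line or culture weighted equally, with Benjamini-Hochberg adjustment across the 22180 genes and a threshold of 0.05. Labels do not tie nodules to mice, so p-values measure the spread between nodules. On simulated data with 200 changed genes, those given a log2 change of 1 were called in 88.1% of cases between the lines. The share was 77.6% for priming of D2.A1, 85.1% for spindle against epithelial nodules and 74.6% between the unprimed lines. It was 73.1% between the primed lines, 59.7% for priming of D2.OR and 52.2% for the difference of the priming effects. Simulated arrays were independent, with 1 normal spread per gene. They held neither nodules that share a mouse nor a nodule that stands apart, so the shares may differ in the real comparisons. The share for the 45 cycle genes themselves was not tested. Among them, Ccna2 at 1.83 ± 0.50 and Cdk1 at 1.25 ± 0.43 did not pass for priming of D2.OR. Every member was described; the genes given with tests are those that passed and, by phase, the gene with the highest mean, plus others named after their values were seen. The members and lists were chosen with earlier results of these data known. The alternatives were array weights, other variance priors, cyclic loess, subsets of arrays and genes, other thresholds and tests, a block for the nodule number, and leaving out each array. Promoters came from RefSeq (GRCm38.p6). Figures were drawn in Python 3.11.15 with pandas 2.3.3 and matplotlib 3.10.9.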

Additional observations from a re-analysis of the deposited data

How the results depend on the processing

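No gene that passed changed the sign of its difference under any alternative tried, but the median over the 45 genes between the primed lines was -0.01 without D2.OR 3D nodule 2, in place of 0.25. For D2.A1 against D2.OR, 7 of the 45 genes passed; 13 passed with cyclic loess, 3 with spindle D2.A1 nodules only, 3 with nodules of one number averaged, and 1 with the methods' t-test after adjustment (16 before it). With the replicate block the count was 2 (Anln and Tpx2). Deviations of same-numbered nodules of different groups correlated at -0.45 to 0.232 (31 pairs). For nodules of different number and group the range was -0.291 to 0.405 (62 pairs). Groups of 2 or 3 nodules constrain such deviations, so this check cannot decide whether the numbers pair the nodules. Between the unprimed groups of both lines 4 passed; 11 did with only the arrays compared, 10 with cyclic loess, 7 with genes above the median gene, 2 with nodules of one number averaged and 25 with the methods' t-test unadjusted. Between primed and unprimed D2.OR nodules none passed; 5 did at 2-fold with an unadjusted p, 2 with array weights, 3 with cyclic loess and 3 with the methods' t-test unadjusted. Between the primed groups of both lines none passed, and the same 4 settings gave 2, 2, 1 and 3. For the difference of the priming effects none passed; 2 did at 2-fold and 1 with cyclic loess. The methods' t-test unadjusted gave 2 for priming of D2.A1 and 3 for spindle against epithelial nodules. Except where an alternative tests fewer genes or arrays, the cause was not tested. Counts under the alternatives stand without the share of all genes passing in the same setting. They therefore do not show whether cycle genes passed more often than other genes.

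With each array left out in turn, counts ranged from 2 to 9 for D2.A1 against D2.OR, 2 to 11 between the unprimed lines, 0 to 9 for priming of D2.OR, 0 to 1 between the primed lines and 0 to 4 for the difference of the priming effects, and stayed at 0 for the others. The upper ends came without D2.OR 3D nodule 2. Without it, a choice made after seeing the data, D2.OR 3D nodules were above D2.OR 2D nodules for 40 genes in place of 14. Weak signals in most of the 45 genes and few arrays limit the precision.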
